A study of Mus musculus with 12 samples.

Results

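The genes of the vacuolar proton pump and of the lysosome were examined in RNA-seq of mouse bone marrow LSK cells, which lack mature lineage markers, carry Sca-1 and KIT, and include the hematopoietic stem cells. The 39 genes were taken by name from the 35999 rows of the deposited table. They comprise 14 subunits and 2 accessory proteins of the V-ATPase, 8 lysosomal membrane proteins, 10 proteases, 3 other lumenal proteins and the transcription factors Tfeb and Tfe3. The group was chosen by function and partly by the p-value of Atp6v1d between the genotypes, among the smallest of all genes, so the difference in Atp6v1d is described without a test. Of the 39 genes, 35 had a mean of at least 10 over all libraries and entered the test across 8887 genes. Atp6v1c1, Ctsh, Ctsl and Tfeb fell below this level.

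The study compared mice lacking Fancg, a gene of the Fanconi anemia core complex, with wild-type mice, to look for early adaptation to a defect in crosslink repair. There were 6 libraries labelled WT and 6 labelled FancgKO (called KO), 1 per mouse, with the numbers 2 to 7 in either genotype. The KO mice were Fancg-/- animals obtained from another laboratory. Age, sex and strain of the mice are not given in the sources used here, and no other treatment is named for either group. The values are the authors' normalized counts, called signal here, that is, estimated reads per gene scaled between libraries.

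The V-ATPase is a rotary motor in the membrane of lysosomes and endosomes. Its cytosolic V1 sector splits ATP and its membrane-embedded V0 sector carries protons into the lumen. The acid lumen activates proteases, glycosidases and lipases, and the lysosomal surface is also where mTORC1 senses nutrients. The related factors TFEB and TFE3 bind E-box elements near the starts of many lysosomal genes, and in stem cells of the bone marrow lysosomal activity is tied to quiescence.

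Promoter sequences are shown because such E-boxes were shared by several of the genes, a feature that played no part in their choice. RefSeq entries on GRCm38.p6, from 250 bases before to 50 after each start, were found for 31 of the 39 genes. The entries of Atp6v1b2, Atp6v1c1, Atp6v1g1, Atp6v1h, Atp6v0a2, Npc1, Ctsb and Ctsh were missing. The palindrome CACGTG, which reads the same on both strands, occurred in the promoters of 10 of the 31 genes (32.3%), against 8.09% of all 27025 genes with an entry and 12.4% of the 6918 tested genes with one. The longer palindrome TCACGTGA, which contains the first, occurred in 6 genes (19.4%), against 1.12% of all genes and 2.52% of those tested. One window is printed for each of these 6 genes and for Lamp1 and Lgmn, with the matched letters in capitals.
Atp6v1a (chr16:44139374-44139401, minus strand): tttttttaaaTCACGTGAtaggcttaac
Atp6v0d1 (chr8:105566051-105566078, minus strand): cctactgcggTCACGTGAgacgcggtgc
Atp6v0e (chr17:26676388-26676415, plus strand): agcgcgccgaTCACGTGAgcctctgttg
Ctsa (chr2:164833767-164833794, plus strand): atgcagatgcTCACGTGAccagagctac
Ctsd (chr7:142387909-142387936, minus strand): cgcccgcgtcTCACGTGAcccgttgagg
Mcoln1 (chr8:3500463-3500490, plus strand): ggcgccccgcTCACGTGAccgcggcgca
Lamp1 (chr8:13159135-13159162, plus strand): cgtgaccacatCACGTGcggaacggagc
Lgmn (chr12:102439125-102439152, minus strand): ggaatgtctgtCACGTGgtccattttat

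Within the 38 promoter entries of the 31 genes CACGTG was found 17 times, and 14 of these matches lay between 100 bases before and 50 after the start. Lamp1 carried 4 matches within 58 bases upstream of its start. Atp6v0b, Ctsa, Ctsd and Mcoln1 carried 2 each. The promoter entries of Atp6v1d, Tfe3 and Tfeb held no CACGTG, which says only that these letters are not in the windows searched.

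**Figure D1:**
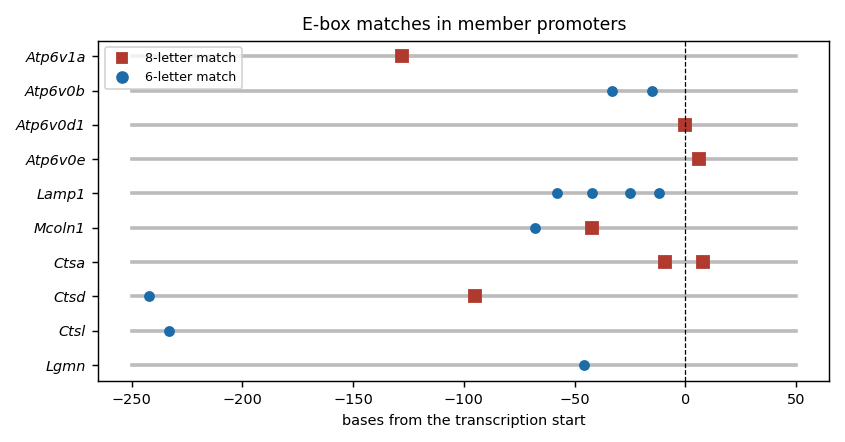
Positions of CACGTG (circles) and TCACGTGA (squares) in the promoters of the 10 genes that hold them, in bases from the transcription start (dashed line). Each grey bar is the window searched, from 250 bases before to 50 after the start. Of the 17 matches, 14 sit between 100 bases before and 50 after the start.

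Fancg itself, on chromosome 4 from 43002343 to 43010506, did not separate the labels. Its signal ran from 4.76 to 24.1 (median 8.59) in the WT libraries and from 4.46 to 14.5 (median 7.91) in the KO libraries (two-sided exact permutation test, p = 0.636). Directions below are therefore those between libraries labelled KO and WT. Zmat3 was higher in each of the 6 KO libraries (14.9 to 30.2) than in any WT library (6.92 to 13.0). The libraries held about 1235110 to 2471413 reads, and the 4 libraries numbered 6 and 7 were the shallowest, at no more than 1484209. These totals include the gene Lars2, which alone made up from 15.6% (WT replicate 3) to 36.2% (WT replicate 6) of the signal of a library. Markers of the sorted population summed to 1450 to 2360 per library over all 12 LSK markers, mainly from Cd34, Flt3, Kit and Meis1. Ly6a, the gene of Sca-1, had means of only 11.5 in WT and 10.1 in KO. Procr had means of 4.9 and 6.71, with 1 library at 0. The 8 T cell markers summed to 1.74 to 9.68. Of the 11 neutrophil markers, 8 had a mean signal under 1 over all libraries. The sum of this list came mainly from Mpo, Prtn3 and Elane, with means of 661, 104 and 84.1 in WT and 704, 110 and 84.6 in KO. It reached 1950 in WT replicate 6 and 2130 in KO replicate 6. The remaining 10 libraries had 313 to 950. Monocyte and macrophage markers summed to 328 and 351 in this pair and to 130 to 277 elsewhere. WT replicate 3 and KO replicate 7 were low in Y-linked transcripts, at 26.6 and 49.7 against 189 to 435 in the others. No marker list separated the genotypes by its sum. Among single markers Itga2b (log2 fold change 0.72), Bst2 (0.82) and Flt3 (-0.51) had an unadjusted limma p under 0.05. They were 1 of 1 tested megakaryocyte marker, 1 of 2 dendritic cell markers and 1 of 11 LSK markers. No tested marker of the other lists was past this threshold, against 3.67% of all genes tested. In these bulk samples, fewer cells of a type and less RNA per cell cannot be told apart.

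Between KO and WT the V-ATPase and lysosome genes did not move together. Of the 35 tested genes, 17 had a log2 fold change above 0 and 18 below, a share of higher genes close to the 50.7% among all genes tested. Their median log2 fold change was -0.05, and that of all genes tested was 0.003. With limma, 2 of the 35 (5.71%) had an unadjusted p under 0.05, against 3.67% of all genes tested. One of the pair is Atp6v1d, lower in KO and there by the way the group was chosen, and the other is Tfe3, higher in KO. Without Atp6v1d the count was 1 of 34 (2.94%) and the median log2 fold change -0.02. Over all genes tested, 1.98% were past this threshold and higher in KO, 1.69% were lower, and 2.62% were past it and differed by more than 0.5 on the log2 scale. None had an adjusted p under 0.05 (limma with Benjamini-Hochberg adjustment), as was the case for all 8887 genes (0%), of which 326 had an unadjusted p under 0.05. The genotypes overlapped for all 39 genes, while they did not for 0.09% of all genes tested. The 95% interval of the log2 fold change reached beyond 0.5 in one direction or the other for 25 of the 35 genes, so a change of that size was not excluded for most of them. The split into higher and lower genes moved with the scaling of the libraries, to 13 and 21 of 34 with median-of-ratios scaling and to 19 and 16 with equal totals without Lars2. Over all genes past an unadjusted p of 0.05, the split was 176 higher and 150 lower as reported, and 93 and 39 with equal totals.

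**Figure D2:**
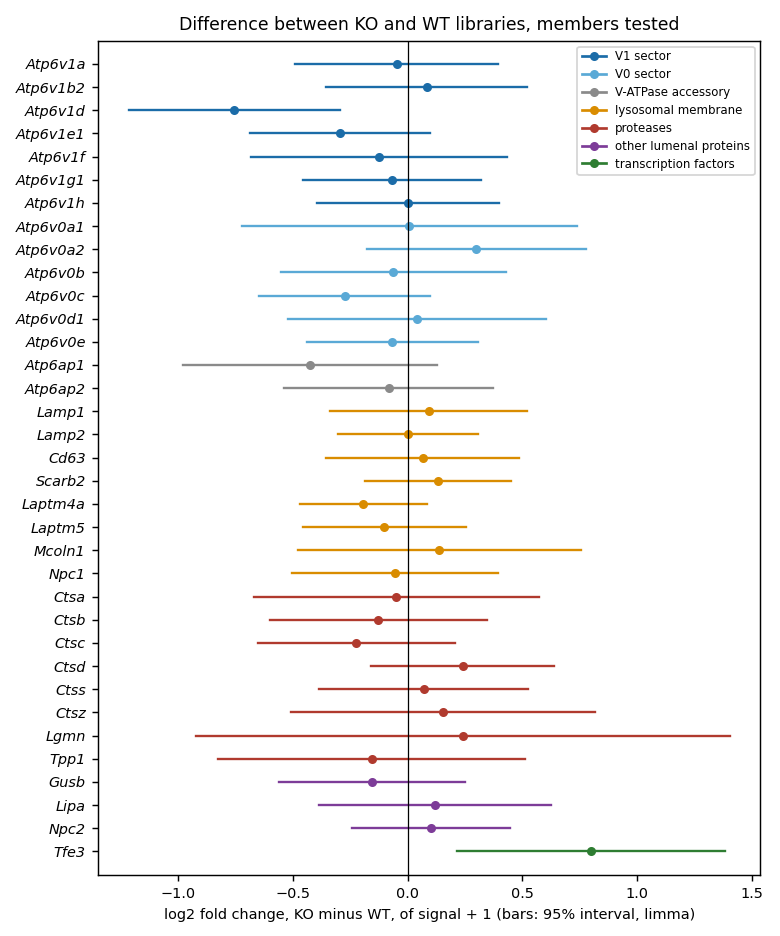
Log2 fold change of signal + 1 (KO minus WT, horizontal axis) for the 35 genes tested, coloured by their role. Points are estimates from 6 KO and 6 WT libraries and bars are 95% intervals from limma. Tfe3 lies farthest to the right (0.80) and Atp6v1d farthest to the left (-0.75). Atp6v1d was used to choose the group, so its bar is not to be read as a test. The intervals of the other 33 genes include 0.

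In the V1 sector, Atp6v1d encodes subunit D of the central rotor shaft that turns as ATP is split. The gene (ENSMUSG00000021114.9) occupies chr12:78840725-78861638 of GRCm38, minus strand. The lowest, median and highest signal were 15.4, 19.7 and 27.7 in the WT libraries and 9.35, 10.7 and 16.2 in the KO libraries. In 5 of the 6 KO libraries the signal was below the lowest WT library, and KO replicate 4 lay within the WT range. The mean was 20.3 ± 4.63 (SD, n = 6) in WT and 11.6 ± 2.54 (SD, n = 6) in KO, a log2 fold change of -0.75. About 7.79 to 31.6 reads in a library lay behind these values. The log2 fold change of Atp6v1d was -0.839 without the pair low in Y-linked transcripts and -0.624 without both replicate 6 libraries. It was -0.626 among the libraries numbered 2 to 5 and -1.01 among those numbered 6 and 7.

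None of the other tested V1 genes had an unadjusted limma p under 0.05 over all 12 libraries, and differences between genes were not tested. Atp6v1f, whose subunit F sits on the same rotor shaft, had a signal of 18.2, 21.2 and 40.8 in WT and 12.5, 22.0 and 35.9 in KO (lowest, median and highest). Its log2 fold change was -0.12, with a 95% interval from -0.68 to 0.43 (limma, unadjusted p = 0.644). The catalytic subunit A, encoded by Atp6v1a, had a signal of 45.0, 49.0 and 51.3 in WT and 28.9, 42.6 and 76.5 in KO. Of the KO libraries 3 lay below the WT range and 2 above it, with an SD of 18.6 against 2.08 in WT. Its log2 fold change was -0.05 (95% interval -0.49 to 0.39).

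Atp6v1b2 encodes the nucleotide-binding partner of subunit A and had a signal of 10.1 to 18.1 in WT and 13.6 to 17.6 in KO. The peripheral stalks consist of subunits E and G. Atp6v1e1 (subunit E) had a signal of 22.8, 29.3 and 37.7 in WT and 19.1, 22.8 and 36.2 in KO, where KO replicate 5 was the highest and the other 5 lay at or below 23.7. Its log2 fold change was -0.29 (limma, unadjusted p = 0.132; exact permutation test, p = 0.0931). With any single library left out, the log2 fold change of Atp6v1e1 ran from -0.407 to -0.226, with an unadjusted limma p of at most 0.255. The value of -0.407 came without KO replicate 5, the highest KO library (limma, unadjusted p = 0.0358). Atp6v1g1 (subunit G) ran from 27.7 to 43.9 in WT and from 25.7 to 45.4 in KO, and Atp6v1h (the regulatory subunit H) from 41.8 to 74.6 and from 42.4 to 70.2. Both genotypes thus covered the same range for G and H. Atp6v1c1, whose subunit C joins the stalks to the membrane sector, was below the filter, at 2.74 to 6.10 in WT and 2.05 to 5.69 in KO. Across the 7 tested V1 genes, 5 had a log2 fold change below 0 and the median was -0.07.

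**Figure D3:**
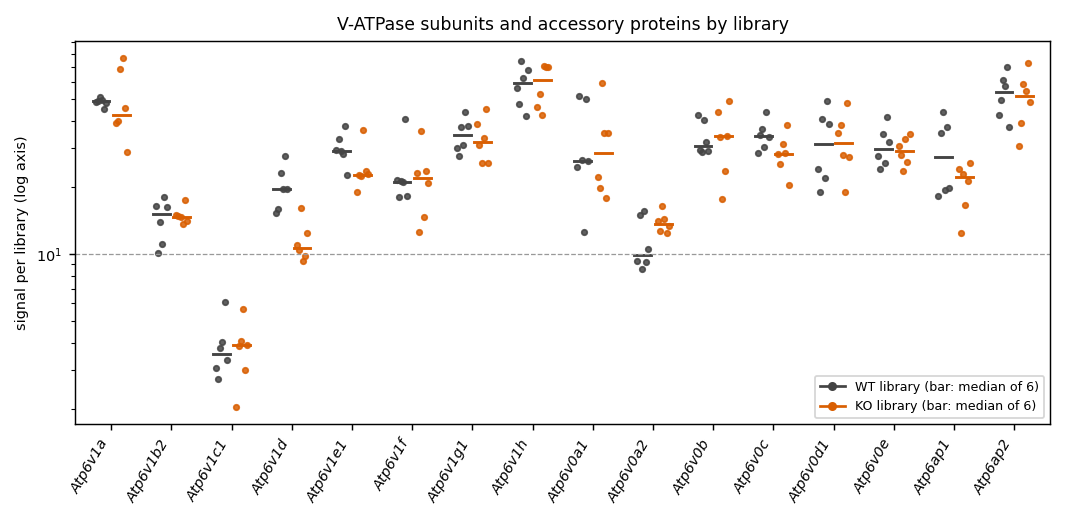
Signal of the 16 V-ATPase genes (log axis) in each WT library (grey) and KO library (orange), with the median of 6 as a bar and the test's minimum mean of 10 dashed. The KO points of Atp6v1d lie below the WT points except for KO replicate 4, and the genotypes overlap for each gene.

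In the V0 sector, 3 of 6 genes had a log2 fold change above 0 and 3 below, and none had an unadjusted p under 0.05. The proton-carrying ring is built from the proteolipids encoded by Atp6v0c and Atp6v0b. Atp6v0c had a signal of 28.6, 34.1 and 43.7 in WT and 20.4, 28.3 and 38.2 in KO, a log2 fold change of -0.27 (95% interval -0.65 to 0.10; limma, unadjusted p = 0.137). Atp6v0b had a signal of 28.8, 30.8 and 42.4 in WT and 17.8, 34.0 and 49.2 in KO, so its KO libraries lay on both sides of the WT libraries. Of the large subunit a, which forms the proton half-channels, the isoform Atp6v0a2 was at 8.58 to 15.7 in WT and 12.4 to 16.5 in KO (log2 fold change 0.30, 95% interval -0.18 to 0.78). The isoform Atp6v0a1 varied more than any other pump gene within a genotype, from 12.6 to 51.6 in WT and from 18.0 to 59.2 in KO. Atp6v0d1, the link between ring and rotor, ran from 19.1 to 49.1 and from 19.0 to 48.1. Atp6v0e ran from 24.3 to 41.6 and from 23.7 to 34.8.

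The accessory proteins ATP6AP1 and ATP6AP2 are needed for assembly of the pump. Atp6ap1 had a signal of 18.2, 27.5 and 43.8 in WT and 12.5, 22.2 and 25.9 in KO, and the highest 3 WT libraries lay above every KO library. The log2 fold change was -0.42 (95% interval -0.98 to 0.13; limma, unadjusted p = 0.123). Atp6ap2 ran from 37.4 to 70.0 in WT and from 30.7 to 72.9 in KO. Both genes, like Lamp2 and Tfe3, lie on the X chromosome.

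Per kilobase of merged exons, the pump genes differed widely in level. Atp6v1g1 was highest among them, at 30.6 ± 5.36 per kilobase in WT and 29.4 ± 6.78 in KO (SD, n = 6 each). With the longest transcript in place of merged exons Atp6v0b was highest, at 33.7 over all libraries against 30.0 for Atp6v1g1. Atp6v1c1 was lowest, at 0.685 ± 0.214 and 0.672 ± 0.216. Atp6v1d was at 4.40 ± 1.0 in WT and 2.51 ± 0.553 in KO, and its rotor partner Atp6v1f at 22.2 ± 8.09 and 20.6 ± 7.78. Isoforms known mainly from other tissues were not all silent, and they are named after their values were seen. Atp6v1b1 and Atp6v1e2 were listed at 0 in all 12 libraries, Atp6v0a4 and Atp6v0d2 in 11, Atp6v1g3 in 10 and Atp6v1c2 in 9. Atp6v0e2 reached a signal of 16.3 (3.28 per kilobase over the 12 libraries) and Atp6v1g2 8.70 (1.36 per kilobase), with 3 and 2 libraries at 0. Tcirg1, which encodes the a3 isoform, stood at 11.1 per kilobase over the 12 libraries, above Atp6v0a1 (4.85) and Atp6v0a2 (1.88).

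Among the 8 lysosomal membrane genes, 5 had a log2 fold change above 0 and 3 below, and none had an unadjusted p under 0.05. Lamp2 and Lamp1 encode the heavily glycosylated proteins that line the membrane. The signal of Lamp2 was 120, 156 and 199 in WT and 136, 149 and 187 in KO (lowest, median and highest). The genotypes covered much the same range, and the log2 fold change was 0.002, with a 95% interval from -0.30 to 0.31. Lamp1 ran from 50.6 to 103 in WT and from 48.1 to 85.8 in KO. WT replicate 6 was its highest library.

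Laptm4a, a small transmembrane protein of late endosomes, had a signal of 92.2, 101 and 121 in WT and 79.2, 88.4 and 108 in KO. Of the KO libraries 4 lay below the lowest WT library, and the log2 fold change was -0.19 (95% interval -0.47 to 0.08; limma, unadjusted p = 0.159). Laptm5, its relative in blood cells, ran from 29.5 to 40.6 and from 21.9 to 37.7. Scarb2, the receptor that delivers glucocerebrosidase, ran from 53.3 to 70.6 and from 57.2 to 91.4, and the tetraspanin Cd63 from 25.2 to 40.0 and from 20.2 to 43.2. Npc1, the cholesterol exporter, ran from 33.5 to 56.9 and from 27.9 to 67.4. The calcium channel gene Mcoln1 was just above the filter, at 6.41 to 13.6 and 5.87 to 15.9.

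Among the 8 tested proteases, 4 had a log2 fold change above 0 and 4 below. Ctsd, the aspartic protease cathepsin D, had a signal of 81.9, 106 and 134 in WT and 74.3, 132 and 153 in KO. Of the KO libraries, 3 lay above the highest WT library and KO replicate 3 lay below the lowest. The log2 fold change was 0.24 (95% interval -0.16 to 0.64; limma, unadjusted p = 0.219). With any single library left out, the log2 fold change of Ctsd ran from 0.171 to 0.386, with an unadjusted limma p of at most 0.392. The value of 0.386 came without KO replicate 3, the lowest library (limma, unadjusted p = 0.0279). Ctsd shares 33.2% of its 31-base stretches with other genes, and it overlaps Gm49369 on the same strand. The summed signal of both had a log2 difference of 0.189 (exact permutation test, p = 0.361).

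Lgmn, the asparaginyl endopeptidase that matures several cathepsins, varied most of all members within a genotype. Its signal was 25.5, 107 and 167 in WT and 25.4, 109 and 286 in KO. The 4 libraries numbered 6 and 7 were the lowest of their genotype, at 25.4 to 57.0, and the 8 numbered 2 to 5 lay between 83.8 and 286. Lgmn was the sole member for which these numbers did not overlap, as they did not for 2.57% of all genes tested. B cell markers moved with it, at a sum of 38.2 to 60.8 in the libraries numbered 6 and 7 and 95 to 299 in the others, and depth was also lower there. The part of either in the Lgmn values was not tested. Between genotypes its log2 fold change was 0.24, with a 95% interval from -0.92 to 1.41, the widest of the 35 genes. The log2 fold change of Lgmn was 0.276 among the libraries numbered 2 to 5 and 0.176 among those numbered 6 and 7.

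Of the cysteine cathepsins, Ctsz ran from 24.1 to 87.8 in WT and from 27.0 to 62.4 in KO, and was highest in replicate 6 of both genotypes. Ctsb ran from 22.0 to 41.7 and from 17 to 44.5, and Ctss from 10.8 to 20.1 and from 12.5 to 17.7. Ctsc, which activates the granule proteases of myeloid cells, was at 12.3, 18.8 and 20.9 in WT and 12, 15.0 and 17.1 in KO (log2 fold change -0.22, 95% interval -0.65 to 0.21). Ctsh and Ctsl were below the filter. Ctsh was at 3.01 to 5.33 in WT and 0.965 to 22.4 in KO, where 5 of 6 libraries lay above the WT range (difference of the mean log2 values 0.61, exact permutation test, p = 0.264). Ctsl was at 2.74 to 6.11 in WT and 1.12 to 10.9 in KO. KO replicate 5 was the lowest library for both. About 1.16 to 14 reads in a library lay behind Ctsh.

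Ctsa, the protease that also protects lysosomal sialidase, ran from 12 to 36.6 in WT and from 10.9 to 32 in KO. Tpp1, a tripeptidyl peptidase, ran from 10.3 to 23.6 and from 6.92 to 33.6. The remaining lumenal genes overlapped as well. Gusb (beta-glucuronidase) ran from 67.3 to 107 and from 44.3 to 102, Lipa (lysosomal acid lipase) from 22.3 to 47.3 and from 24.6 to 57.5, and the cholesterol carrier Npc2 from 66.7 to 95.5 and from 61.5 to 115. None of the 8 proteases and 3 other lumenal genes tested had an unadjusted p under 0.05.

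Tfe3 was the member with the largest log2 fold change above 0. The gene (ENSMUSG00000000134.17) occupies chrX:7762560-7775202 of GRCm38, plus strand. The lowest, median and highest signal were 16.6, 17.7 and 49.4 in WT and 26.1, 38.8 and 56.8 in KO. Of the WT libraries 4 sat between 16.6 and 18.2, WT replicate 7 stood at 29.8 and WT replicate 4 at 49.4, within the KO range. The log2 fold change was 0.80 (standard error 0.27; limma, unadjusted p = 0.0107, adjusted p = 0.9996; two-sided exact permutation test, p = 0.0260). With any single library left out, the log2 fold change of Tfe3 stayed between 0.697 and 1.02 and its unadjusted limma p was at most 0.0285. Without both replicate 6 libraries the log2 fold change was 0.669 (limma, unadjusted p = 0.0489). The call was lost within either set of numbers, at 0.769 among the libraries numbered 2 to 5 (limma, unadjusted p = 0.0569) and 0.855 among those numbered 6 and 7 (limma, unadjusted p = 0.0632). Tfeb, its close relative, was the lowest of the 39 genes per kilobase, at 0.316 over all libraries. Its signal, not divided by length, ran from 0.769 to 3.61 in WT and from 1.37 to 2.66 in KO, about 0.638 to 3.13 reads per library.

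**Figure D4:**
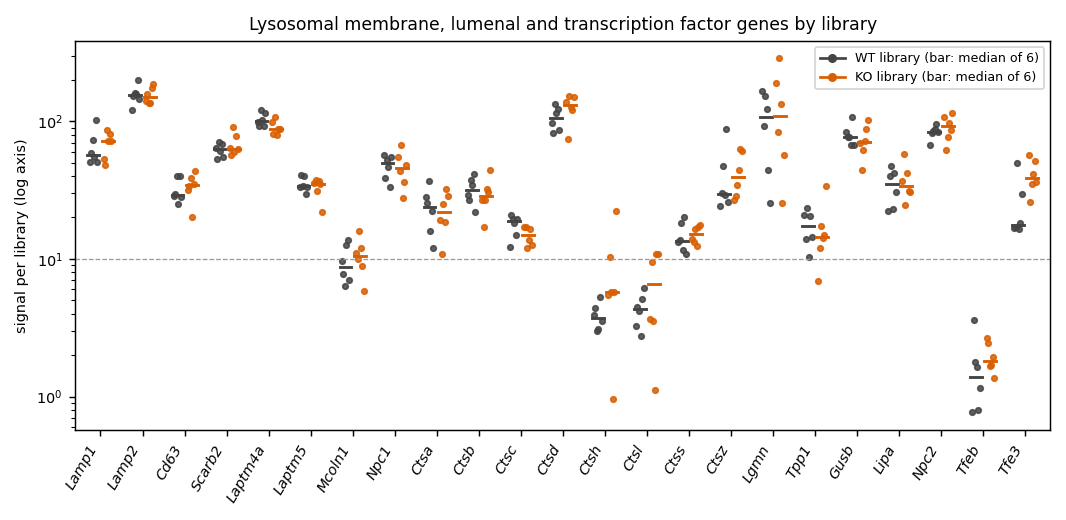
Signal of the 23 lysosomal genes (log axis) in each WT library (grey) and KO library (orange), with the median of 6 as a bar and the test's minimum mean of 10 dashed. Lgmn spreads from 25.4 to 286 in both genotypes together, and 4 of 6 WT libraries of Tfe3 lie below every KO library.

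The genes whose promoters hold the E-box showed no common shift. Of the 10 genes with CACGTG, 9 were tested, and 5 had a log2 fold change above 0 and 4 below, from -0.07 to 0.24 with a median of 0.04. The 6 genes with the longer palindrome had a median of -0.003. The 20 tested genes with a promoter entry but no CACGTG had a median of -0.09 and ran from -0.75 (Atp6v1d) to 0.80 (Tfe3).

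Per kilobase over all 39 genes, the highest levels were those of Laptm4a (58.5 ± 6.65 in WT and 51.1 ± 6.19 in KO, SD, n = 6), Ctsd (45.2 ± 8.96 and 54.0 ± 12.2) and Lgmn (43.2 ± 24.6 and 55.7 ± 41.5). Single libraries ran from 44.7 to 68.3 for Laptm4a, from 31.6 to 65.0 for Ctsd and from 10.9 to 123 for Lgmn, so these 3 overlapped. Atp6v1g1 and Ctsz followed, at 30.0 and 29.0 per kilobase over the 12 libraries. At the other end stood Ctsh (1.37), Mcoln1 (1.33), Ctsl (0.839), Atp6v1c1 (0.679) and Tfeb (0.316).

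Within a genotype, the genes varied together to a modest degree. The median correlation of log2 deviations from the genotype mean was 0.149 over the 595 pairs of tested members and 0.0113 over all pairs of the 8887 genes, each across the same 12 libraries. It was 0.0788 among the 15 V-ATPase genes and 0.164 among the other 20. The pairs that varied most alike were Lamp1 with Ctsz (r = 0.868), Ctsb with Gusb (0.840) and Atp6ap2 with Lamp1 (0.839). Other pairs varied in opposite directions to nearly the same degree, as Atp6v1a with Atp6v0b (-0.831) and Laptm5 with Tpp1 (-0.805). These are the extremes of 595 pairs over 12 libraries and were not tested. Lamp1 and Ctsz were highest in WT replicate 6. This library was among those with the highest sums of the neutrophil list, mainly Mpo, Prtn3 and Elane, and of the monocyte and macrophage list. Without both replicate 6 libraries the median over members was 0.113 and that of Lamp1 with Ctsz 0.713. These are descriptions over libraries that also share depth and scaling.

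**Figure D5:**
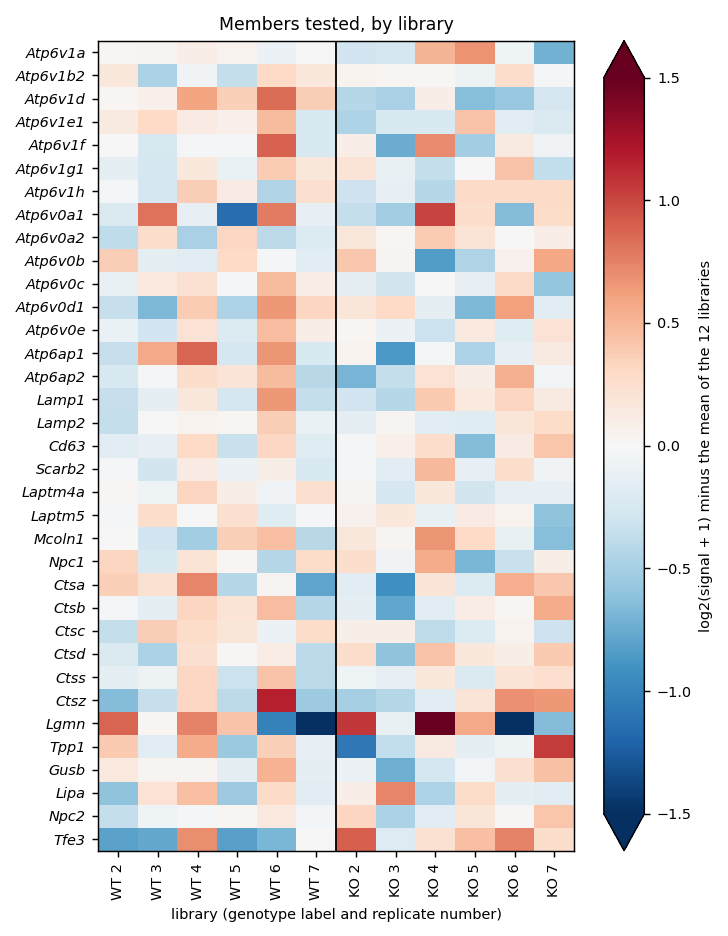
Log2(signal + 1) of the 35 genes tested minus the gene's mean of the 12 libraries (colour), by library, with WT left and KO right of the line. Lgmn is low in the libraries numbered 6 and 7 of both genotypes, Atp6v1d is lower on the KO side and Tfe3 higher.

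Other genes of the pathway were examined from lists covering further pump subunits, hydrolases, membrane proteins, sorting, lysosomal signalling and fusion. Of 143 listed genes, 95 were tested, with 52 above 0, 43 below and a median log2 fold change of 0.03. By limma, 3 of them (3.16%) had an unadjusted p under 0.05, against 3.67% of all genes tested, and 0 had an adjusted p under 0.05. Dmxl2, part of a complex that joins V1 to V0, had a signal of 20.4, 30.3 and 54.7 in WT and 14.8, 22.2 and 28.8 in KO (log2 fold change -0.56, unadjusted limma p = 0.0314, exact permutation test, p = 0.0411). Gpr137, a lysosomal membrane protein, was at 6.30, 7.49 and 10.8 in WT and 6.98, 16.9 and 30.6 in KO (log2 fold change 0.85, unadjusted limma p = 0.0321, exact permutation test, p = 0.0541). Plekhm1, an adaptor for lysosome fusion named after its value was seen, was at 14.5, 22.9 and 26.8 in WT and 19.2, 33.6 and 40.1 in KO (log2 fold change 0.50, unadjusted limma p = 0.0288, exact permutation test, p = 0.0303).

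These calls lay close to the threshold. Dmxl2 lost its unadjusted call without WT replicate 3 or 4 or without KO replicate 2, 4 or 6, at a log2 fold change of Dmxl2 from -0.549 to -0.408. Gpr137 lost it without WT replicate 2, 4, 5 or 7 or KO replicate 3, 4 or 5, at a log2 fold change of Gpr137 from 0.658 to 0.834. Plekhm1 lost it without WT replicate 6 or KO replicate 2, 4 or 7, at a log2 fold change of Plekhm1 from 0.387 to 0.462. With equal totals Dmxl2 (-0.509) and Plekhm1 (0.551) were also above an unadjusted p of 0.05, and among the libraries numbered 6 and 7 Dmxl2 was at -0.068. Asah1, the acid ceramidase of the lysosome, ran from 19.5 to 27.8 in WT and from 14.4 to 29.5 in KO (log2 fold change -0.12, 95% interval -0.53 to 0.30; limma, unadjusted p = 0.558).

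Of the pathway genes, 47 were below the filter and had no part in the test across genes, and 4 of them are named after their values were seen. Tmem199, an assembly factor of the V-ATPase, was the one pathway gene whose genotypes did not overlap. Its signal was 5.59, 6.95 and 10.7 in WT and 1.19, 3.20 and 5.03 in KO, a log2 difference of -1.11 (two-sided exact permutation test, p = 0.0022, unadjusted and the smallest this design allows). About 1.39 to 10.2 reads in a library lay behind these values, and the genotypes did not overlap for 0.158% of the 1898 genes with a mean signal from 5 to under 10. Ostm1, a partner of the lysosomal chloride transporter, was at 5.44 to 9.86 in WT and 8.43 to 10.7 in KO (exact permutation test, unadjusted p = 0.0108). Plekhm2, an adaptor for lysosome positioning, was at 4.74 to 8.73 in WT and 4.76 to 18.1 in KO, where 5 of 6 libraries lay above the WT range (exact permutation test, unadjusted p = 0.0216). Mcoln2, a relative of Mcoln1, was at 3.39 to 15.3 in WT and 2.41 to 6.53 in KO (exact permutation test, unadjusted p = 0.0454). Ostm1, Plekhm2 and Mcoln2 were picked from the 47 genes, and no share of low genes past this exact test is given beside them. Their p-values therefore only describe the genes picked.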

How the data were processed

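RNA-seq was done on LSK cells of 12 mice, 6 WT and 6 KO. The authors deposited 1 table of normalized counts, treated here as signal: estimated counts, for which kallisto is named in the submitters' processing notes, divided by a factor per library. The mouse build and annotation are not given in the sources used here. Only 10.4 to 11.4% of values were whole multiples (tolerance 0.001) of the step taken as 1 read, so read numbers are approximate and no count model was used.

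The 39 genes and the pathway and marker lists were chosen with earlier results of these data known. The 8887 of 35999 genes whose mean signal reached 10 were tested on log2(signal + 1) with limma 3.58.1 (R 4.3.3, trended variance, no covariate, two-sided, Benjamini-Hochberg adjustment over all 8887). Fold changes on this scale understate those of low genes. Single genes were also tested with an exact permutation test over all 924 divisions of the libraries, with a smallest p of 0.0022. Where nothing but the labels separates mice, p-values set the difference between the labels against the spread between these libraries.

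The rule for named genes took the 16 V-ATPase genes, members past an unadjusted p of 0.05, a log2 fold change of 0.5 or without overlap, the 5 highest and 5 lowest per kilobase, members with a library that stood apart, Tfeb, Tfe3, pathway genes past both thresholds, Asah1, Fancg and Zmat3. The remaining members are given by their ranges, and other genes were named after their values were seen. Gene positions and exon lengths came from GENCODE M21 (GRCm38), in which 35929 of the 35999 names were found. Promoters came from RefSeq (GRCm38.p6). Alternatives were other filters, pseudocounts and scalings, a replicate block and left-out libraries.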

Additional observations from a re-analysis of the deposited data

Results flagged for a closer look

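In 5 of 90 groups of 6 libraries, 1 library stood apart from the others by Dixon's criterion, and chance alone flags about 1 group in 20, or 4.5 here. Atp6v1b2, the nucleotide-binding subunit B, was at a signal of 17.6 in KO replicate 6, with the other KO libraries at 13.6 to 15. Atp6v1e1, subunit E of the peripheral stalk, was at 36.2 in KO replicate 5, with the others at 19.1 to 23.7. Atp6v1f, subunit F of the rotor, was at 40.8 in WT replicate 6, with the other WT libraries at 18.2 to 21.7. Laptm5 was at 21.9 in KO replicate 7, the library of lowest depth, with the others at 31 to 37.7. Ctsd (cathepsin D) was at 74.3 in KO replicate 3, with the others at 120 to 153.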

How the results depend on the processing

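The count of all genes tested past an unadjusted p of 0.05 (326) was 836 with no filter, 91 where the mean signal had to reach 50 and 132 with equal totals without Lars2, and 276 to 385 with 1 library left out. The count of members past it (2) was 0 with a mean of at least 50, a filter that removes both genes, 1 among the libraries numbered 2 to 5 and 0 among those numbered 6 and 7, which leave fewer samples. With 1 library left out it was 2 to 3. The median log2 fold change of the members lay between -0.0704 and 0.0848, so its sign depends on the processing. Of the 5 highest members per kilobase, 3 were also among the 5 highest with the longest transcript in place of merged exons, and 5 with any 1 library left out. The replicate numbers, which the sources tie to no shared litter or day, were not taken as pairs, since not every pair correlated over 0.1: deviations of same-numbered libraries correlated at 0.086 to 0.36, over 0.1 in 4 of 6 pairs, and 9 of 12 libraries correlated best with their own number, a hint from the data and not from the design (mean 0.20, against -0.039 for other numbers). With the replicate block, 476 of all genes and 2 members were past the threshold. Depth limits Tfeb, Ctsh, Ctsl and Atp6v1c1 most.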

Other observations

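Some lysosomal genes outside the 39 had levels per kilobase of merged exons above those of most members, and they are named after their values were seen. Psap, the precursor of the saposins that help degrade sphingolipids, stood at 88.1 ± 16 in WT and 81.3 ± 6.36 in KO (SD, n = 6), above Laptm4a. Creg1, a lysosomal glycoprotein, stood at 68.5 ± 20.6 and 60.3 ± 24.6, and Gm2a, the GM2 ganglioside activator, at 51.8 ± 8.80 and 47.2 ± 7.25. For each of them the genotypes overlapped. Of 31 tested hydrolases and activators outside the 39, 15 had a log2 fold change above 0 and 16 below, with a median of -0.03, and 0 had an unadjusted limma p under 0.05.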
